A study of Homo sapiens with 5 samples.

Results

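KRT14+ control cells are cells that held 3 or more KRT14 UMIs (unique transcript tags) in either of 2 control samples of the cell line MDA-MB-468, which was derived from a human breast cancer that lacks hormone receptors and HER2 amplification. They were set against KRT14- cells of the same control, which held 0 KRT14 UMIs. There were 620 KRT14+ cells, 367 in the HA control and 253 in the VPR control, of 5975 control cells kept and of 14642 cells kept in the whole series. Another 3504 control cells were KRT14- (1974 and 1530), and the 1039 and 812 cells with 1 or 2 KRT14 UMIs were in neither class. Each KRT14+ cell was paired with the KRT14- cell of its own control that had the nearest total UMI count, no cell being used more than once.

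The study asked which genes follow FOSL1, the gene of the AP-1 subunit FRA-1, when it is raised in this line. Its 5 samples were an HA FOSL1 sample, 2 VPR FOSL1 samples made with the guide RNAs gRNA2 and gRNA3, the HA control and the VPR control. Each was stained with its own hashtag antibody before all were pooled and run as 1 single-cell library that counts a tag at the 3' end of each transcript; the protocol speaks of 6 stained samples in the pool, of which these 5 are labelled and analysed here. The labels give HA and VPR as letters only, and do not say what the controls carry, whether a line is 1 clone or whether these samples received the 5-fluorouracil that is mentioned for the series in general. Each group was 1 sample, and cells of 1 sample are not replicates. Every interval for a control therefore covers counting error only, and no test was run within the controls.

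Keratin 14 is the type I keratin of the dividing basal layer of stratified epithelia, where it forms filaments with keratin 5, and in the mammary gland it marks the basal compartment. KRT16, KRT17 and the KRT6 genes encode keratins of wounded, inflamed or hyperproliferative skin, and KRT8, KRT18 and KRT19 those of simple and luminal epithelium. In breast tumours KRT14 RNA can be found in scattered cells among cells with luminal keratins.

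KRT14 RNA was scarce and spread unevenly over the control cells. The HA control had 10.9% KRT14+ cells (95% exact binomial interval 9.83 to 12) and the VPR control 9.75% (8.63 to 11), while 58.4% and 59.0% of cells held no KRT14 UMI. The KRT14+ cells held 59.6% of the KRT14 UMIs of the HA control and 55.1% of those of the VPR control. Most of them lay near the threshold: 219 and 164 cells had 3 or 4 UMIs, of which 140 and 121 had exactly 3, just inside, against 310 and 224 cells with 2 UMIs, just outside. Only 31 and 22 cells had 10 or more, and the highest cell had 31 UMIs in the HA control and 26 in the VPR control. In the FOSL1 samples, by contrast, the same rule took 30.5% (HA FOSL1), 28.6% (gRNA2) and 33.2% (gRNA3) of the cells. Empty droplets held KRT14 at 152 CPM (a gene's UMIs per 1000000 UMIs summed over the cells or droplets), against 58.5 and 51.5 CPM over all cells of the controls, so free RNA of the pool was richer in KRT14 than the control cells themselves. No cell type in the pool is known to lack KRT14, so the share of cells that free RNA alone would lift to 1 UMI was not measured.

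**Figure D1:**
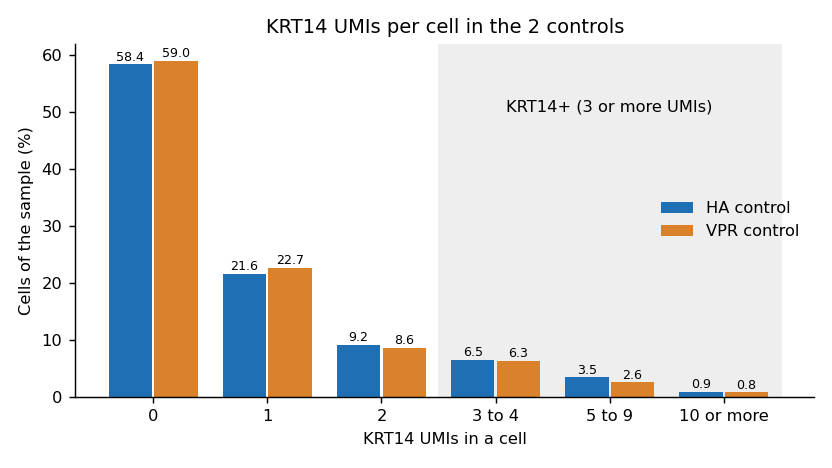
Share of kept cells (%) of the HA control and the VPR control by the number of KRT14 UMIs in the cell. The shaded cells with 3 or more UMIs are the KRT14+ class, which is 10.9% of the HA control and 9.75% of the VPR control, and more than 58% of cells in either control held none.

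The classes were alike in depth after pairing, and differed in hashtag purity and in mitotic genes. Median UMIs per cell were 16795 in KRT14+ against 16799 in KRT14- cells of the HA control, and 18987 against 18972 in the VPR control; unpaired KRT14- cells had 14935 and 15064. Summed UMIs per class ran from 5148228 to 7115101. Median mitochondrial shares were 11.3% against 11.2% and 11.1% against 10.9%. The cell's own hashtag made up a median 88.3% of hashtag UMIs in KRT14+ against 89.8% in KRT14- cells of the HA control, and 92.6% against 93.5% in the VPR control. Cells with an own-hashtag share under 90% made up 61.9% against 51.2% in the HA control and 31.2% against 26.1% in the VPR control. The FOSL1 samples' hashtags made up a median 10.2% against 8.97% and 6.31% against 5.72%, and at the 95th percentile of cells 27.5% against 23.7% and 22.1% against 18.7%. The part of stray hashtags in the results was not tested as a whole. FOSL1 itself, a gene raised in the FOSL1 samples, was at 10.5 CPM in KRT14+ against 9.21 CPM in KRT14- cells of the HA control, and at 12.3 against 10.5 CPM in the VPR control. Both counting intervals of its log2 ratio held 0 (-0.27 to 0.63 and -0.29 to 0.72). Unpaired cells with 3 to 4 KRT14 UMIs had 11.8 CPM of FOSL1 (8.71 to 15.7) against 7.16 CPM (6.26 to 8.16) in all KRT14- cells of the HA control, and 13.4 CPM (9.68 to 18) against 7.82 CPM (6.76 to 9.0) in the VPR control, so the near equality holds for the paired cells only.

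KRT16 led the genes that were higher in KRT14+ cells of both controls, and 3 further keratins were among them. With KRT14 left out, 21 of 5596 genes (0.375%) at a mean of 20 CPM or more were at least 1.5-fold higher in KRT14+ cells in both controls, and 0 (0.0%) were at least 1.5-fold lower in both. Of those 21 genes, 4 were keratins: KRT16, KRT17, KRT15 and KRT4. Some of the 21 fell under 1.5-fold when the KRT14+ cell with the most UMIs of the gene was left out. In the VPR control these were KRT17 (log2 ratio 0.55), MUC1, MT1E, SLC6A14, CRYAB and ADAMTS1, and in the HA control TFCP2L1 and CRYAB. KRT16, KRT15 and KRT4 stayed past 1.5-fold in both. Taken singly, the HA control had 32 genes (0.558%) higher and 8 (0.139%) lower of 5738, and the VPR control 34 (0.589%) higher and 9 (0.156%) lower of 5768. No gene (0.0%) was past 1.5-fold in opposite directions in the controls. With a smaller size allowed, 204 genes (3.65%) were above 0 and 251 (4.49%) below 0 in both controls with counting intervals that left out 0. Log2 ratios are of CPM + 1, which understates the ratio of low genes, and their median over all genes was -0.01 in the HA control and -0.02 in the VPR control. The counts depend on where the class begins: with KRT14+ at 5 or more UMIs, 32 genes were higher and 13 lower in both controls, and at 1 or more 1 was higher. Since the cells were split by KRT14, all of these values describe the split and carry no test.

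**Figure D2:**
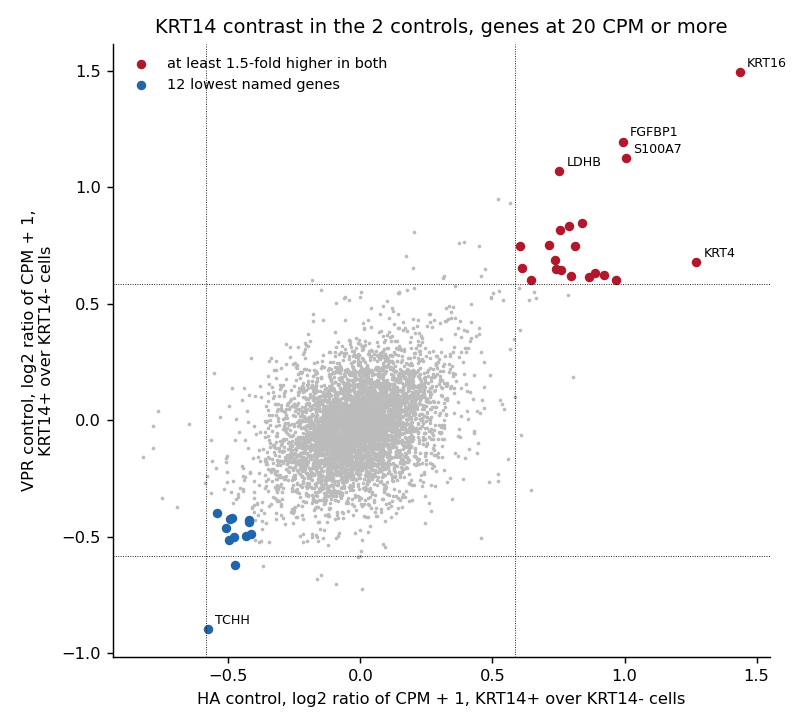
Log2 ratio of CPM + 1, KRT14+ over KRT14- cells, in the HA control (horizontal) and the VPR control (vertical), 1 point for each of 5596 genes, with dotted lines at 1.5-fold. The 21 red genes lie beyond 1.5-fold at the upper right with KRT16 farthest, and the 12 blue genes are the lowest named ones, of which TCHH is the farthest down.

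KRT16 had the largest ratio of the 21 genes in both controls. It was at 144 CPM in KRT14+ against 52.7 CPM in KRT14- cells of the HA control, a log2 ratio of 1.44 (counting interval 1.27 to 1.61). In the VPR control it was at 183 against 64.3 CPM, a log2 ratio of 1.49 (1.32 to 1.68). The 2 controls thus had nearly the same ratio from slightly different levels. In the VPR control 11.6% of the KRT16 UMIs of KRT14+ cells came from 1 cell. Without the highest KRT14+ cell the log2 ratio was 1.32 there and 1.38 in the HA control. With every cell thinned to 5000 UMIs, 35.7% of KRT14+ against 19.1% of KRT14- cells of the HA control held a KRT16 UMI, and 40.5% against 23.4% in the VPR control (unthinned, 69.2% against 44.1% and 75.9% against 50.2%). Empty droplets held 187 CPM of KRT16, and with 5% of UMIs taken away as free RNA its log2 ratio was 1.62 in the HA control and 1.64 in the VPR control. The same 5% was taken from both classes, which could only raise the KRT16 ratio. This removal cannot show what a larger share of free RNA in KRT14+ cells would do, and that was not tested. Among cells whose own hashtag was at least 90% of hashtag UMIs, the log2 ratio was 1.47 in the HA control and 1.58 in the VPR control.

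The other basal and stress keratins had smaller ratios. KRT17, the most abundant of them, was at 797 CPM in KRT14+ against 458 CPM in KRT14- cells of the HA control (log2 ratio 0.80, interval 0.73 to 0.86) and at 864 against 563 CPM in the VPR control (0.62, 0.55 to 0.69). KRT15, a keratin of basal and hair follicle stem cells, was at 58.1 against 34.4 CPM (0.74) and at 51.6 against 31.7 CPM (0.69). KRT5, the filament partner of KRT14, differed by less: 288 CPM in KRT14+ against 248 CPM in KRT14- cells of the HA control (0.22, 0.12 to 0.31) and 304 against 240 CPM in the VPR control (0.34, 0.23 to 0.45). KRT6B was low, with 121 UMIs in KRT14+ against 56 in KRT14- cells of the HA control and 79 against 26 in the VPR control. Of the 7 members of this list, 4 were at 20 CPM or more, and 3 of these were at least 1.5-fold higher in each control. Their median log2 ratios were 0.77 (HA control) and 0.65 (VPR control), against -0.01 and -0.02 over all genes.

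KRT14, KRT15, KRT16 and KRT17 all lie on chromosome 17 of GRCh38.p14, at 41582279 to 41586895, 41513745 to 41518890, 41609778 to 41612767 and 41619442 to 41624575 in the RefSeq annotation. Positions were taken for these genes only, so whether other genes lie between them was not looked at. KRT14, KRT16 and KRT17 are near-copies of each other in sequence, as are the genes of the KRT6, GSTM and metallothionein families, so their values are uncertain to that extent. How reads that match several such genes were counted is not stated in the sources, and their part in these ratios was not tested.

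The simple epithelial keratins did not follow. KRT8 was at 902 CPM in KRT14+ against 899 CPM in KRT14- cells of the HA control and at 1035 against 1082 CPM in the VPR control. KRT18 had log2 ratios of -0.20 and -0.07, KRT7 -0.22 and -0.16 and KRT19 0.12 and 0.07. None of these 4 genes was past 1.5-fold in either control, and their medians were -0.10 and -0.07. KRT4, a type II keratin of mucosal epithelia and the fourth keratin among the 21 genes, was at 37.0 against 14.7 CPM in the HA control (1.27, 0.95 to 1.59) and at 41.9 against 25.8 CPM in the VPR control (0.68, 0.37 to 0.99). KRT34, a hair keratin, gave the widest gap and rested on few cells: 307 UMIs in KRT14+ against 7 in KRT14- cells of the HA control, of which 108 and 95 came from 2 cells, and 116 against 12 UMIs in the VPR control, with 73 and 33 in 2 cells. It lay under 20 CPM in the VPR control and so is not among the 21 genes.

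**Figure D3:**
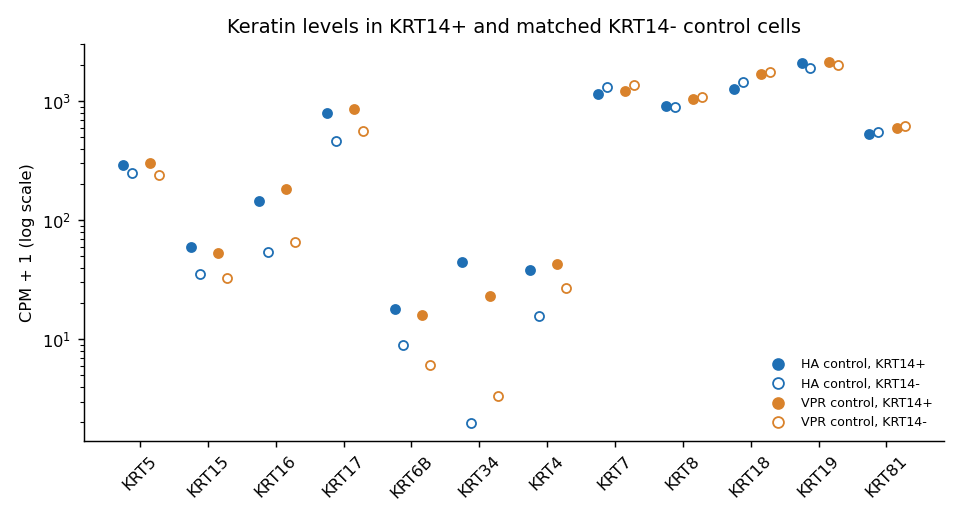
Levels of 12 keratin genes (CPM + 1, log scale) in KRT14+ cells (filled) and paired KRT14- cells (open) of the HA control (blue) and the VPR control (orange). The filled points of KRT16, KRT17, KRT15, KRT4, KRT6B and KRT34 stand above the open ones in both controls, whereas those of KRT7, KRT8, KRT18, KRT19 and KRT81 nearly coincide.

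Genes of secreted and surface proteins are given next; they were grouped after their values were seen, and no share was tested. S100A7, the psoriasin of inflamed epidermis, was at 159 CPM in KRT14+ against 78.9 CPM in KRT14- cells of the HA control (1.01, 0.86 to 1.15) and at 387 against 177 CPM in the VPR control (1.12, 1.01 to 1.24). It was patchy in both classes: 125 of 367 KRT14+ against 74 of 367 KRT14- cells of the HA control held an S100A7 UMI, and 146 of 253 against 105 of 253 in the VPR control. FGFBP1, which encodes a carrier that releases fibroblast growth factors from the matrix, was at 210 against 105 CPM in the HA control (0.99, 0.87 to 1.12) and at 123 against 53 CPM in the VPR control (1.19, 0.99 to 1.40). In cells with an own-hashtag share of at least 90% the ratio of FGFBP1 was 0.52 in the HA control and 1.03 in the VPR control, and that of S100A7 was 2.07 and 1.55. The size of the S100A7 ratio rested on the cells it was paired with: against all KRT14- cells it was 0.67 in the HA control and 0.43 in the VPR control, and with pairs matched also on mitochondrial share 0.45 and 0.88, so that it fell under 1.5-fold in 1 control each time. LY6D, a surface protein of keratinocytes, had log2 ratios of 0.84 and 0.85 at 30.9 CPM and 36.8 CPM in KRT14+ cells. SOSTDC1, which encodes a secreted protein that blocks BMP and Wnt ligands, was at 62.4 against 35.7 CPM and at 32.2 against 17.7 CPM. KLK10, a secreted kallikrein, was at 68.6 against 38.7 CPM and at 95 against 56.1 CPM. ALCAM, a cell adhesion molecule, was at 55.3 against 33.3 CPM and at 39.6 against 23.1 CPM. The mucin gene MUC1 had log2 ratios of 0.65 and 0.60 and the matrix protease gene ADAMTS1 0.97 and 0.60, but in the VPR control 20.3% of the ADAMTS1 UMIs of KRT14+ cells came from 1 cell, without which the ratio was 0.29.

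The promoters of S100A7, FGFBP1 and GSTM3 are shown because they are the 3 highest named genes with a promoter that could be shown; the type I keratins had no entry. The ratios of S100A7 and GSTM3 differed in sign between HA FOSL1 and the controls, and those of FGFBP1 did not. The RefSeq windows of GRCh38.p14 run from 250 bases before to 50 bases after the annotated start. S100A7 lies on the minus strand at chr1:153460602-153460901, FGFBP1 on the minus strand at chr4:15938691-15938990 and GSTM3 on the minus strand at chr1:109740989-109741288. Capitals mark the letters TATAAA.
S100A7: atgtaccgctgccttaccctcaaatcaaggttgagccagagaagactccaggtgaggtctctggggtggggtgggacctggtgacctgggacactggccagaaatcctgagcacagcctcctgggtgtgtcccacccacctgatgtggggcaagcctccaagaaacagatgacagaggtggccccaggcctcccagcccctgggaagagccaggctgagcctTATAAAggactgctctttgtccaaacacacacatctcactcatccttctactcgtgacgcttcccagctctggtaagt
FGFBP1: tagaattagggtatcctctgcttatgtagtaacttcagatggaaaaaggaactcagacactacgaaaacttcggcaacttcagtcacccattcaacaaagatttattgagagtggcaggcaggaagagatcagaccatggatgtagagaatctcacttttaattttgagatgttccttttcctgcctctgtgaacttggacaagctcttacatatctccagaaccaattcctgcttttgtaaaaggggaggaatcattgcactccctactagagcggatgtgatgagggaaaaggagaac
GSTM3: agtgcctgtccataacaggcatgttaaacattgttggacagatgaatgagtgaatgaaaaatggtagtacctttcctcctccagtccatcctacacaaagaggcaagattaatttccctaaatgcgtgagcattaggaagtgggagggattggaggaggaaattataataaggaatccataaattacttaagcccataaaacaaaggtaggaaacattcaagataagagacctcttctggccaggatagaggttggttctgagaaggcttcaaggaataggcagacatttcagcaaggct
Both strands were searched for TATAAA, the core of the TATA box, and for TGANTCA, the letters of an AP-1 site, which cannot overlap each other. TATAAA was found in S100A7 alone of the 3, with its first base at -28 from the start, and TGANTCA in none of the 3. Of the 21 genes, 10 had a promoter in the table: 3 of these (LDHB, MUC1 and S100A7) held TATAAA, against 12% of 27305 promoters, and 1 (SLC6A14) held TGANTCA, against 7.76%. A match describes letters in this window and is not a site.

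Of the heat shock list 1 of 8 measured members (CRYAB) was at least 1.5-fold higher in both controls, against 0.375% of all genes. GSTM3, a glutathione transferase, was at 113 CPM in KRT14+ against 66.6 CPM in KRT14- cells of the HA control (0.75, 0.59 to 0.92) and at 83.1 against 46.8 CPM in the VPR control (0.81, 0.59 to 1.04). LDHB, a subunit of lactate dehydrogenase, was at 137 against 80.6 CPM (0.75) and at 89.9 against 42.3 CPM (1.07). CYP1B1, a cytochrome P450 of oestrogen and xenobiotic metabolism, was at 149 against 89.0 CPM (0.74) and at 186 against 118 CPM (0.65). MT1E, a metal-binding metallothionein with close copies, was at 280 against 147 CPM (0.92) and at 287 against 186 CPM (0.62), and CRYAB, a small heat shock protein, at 202 against 131 CPM (0.61) and at 152 against 96.3 CPM (0.65). TFCP2L1, a transcription factor gene, had ratios of 0.60 in the HA control and 0.75 in the VPR control, and SLC6A14, an amino acid transporter gene, 0.87 and 0.61.

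No gene was at least 1.5-fold lower in both controls, so the lower genes are named by the smaller of their control ratios. TCHH, which encodes the hair follicle protein trichohyalin, was at 21.2 CPM in KRT14+ against 32.2 CPM in KRT14- cells of the HA control (-0.58, -0.87 to -0.28) and at 23.3 against 44.3 CPM in the VPR control (-0.90, -1.21 to -0.58). The other named genes were TSPAN1 (a tetraspanin), IGFBP2 (an IGF-binding protein), TFPI (a coagulation inhibitor), DUSP4 (a MAP kinase phosphatase), ABCC3 (an export pump), NT5E (the ectonucleotidase CD73), MAP3K1 (a kinase), KITLG (the ligand of KIT), TGFB2, INHBB (an activin and inhibin subunit) and SLITRK6. In these 11 the log2 ratio lay between -0.54 (SLITRK6) and -0.42 in the HA control and between -0.62 (TFPI) and -0.40 in the VPR control. IGFBP2 was at 70.9 against 99.2 CPM in the HA control and at 54.8 against 78.1 CPM in the VPR control. NT5E was at 61.7 against 87.3 CPM and at 82.3 against 111 CPM. Against all KRT14- cells, unpaired, its log2 ratio was -0.30 in the HA control and -0.19 in the VPR control. Unpaired cells with 3 to 4 KRT14 UMIs had 78.3 CPM of NT5E against 76.4 CPM in all KRT14- cells of the HA control. In the VPR control these levels were 89.9 against 94.3 CPM. Cells with 5 to 9 KRT14 UMIs had 40.8 CPM in the HA control and 73.1 CPM in the VPR control. With the stricter filter of 3000 genes and 10% mitochondrial UMIs the ratio of NT5E was 0.0012 in the HA control and -0.06 in the VPR control, near 0 in both.

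The counts of the gene lists are set against the shares over all genes past 1.5-fold in both controls, 0.375% on the higher and 0.0% on the lower side. Of 31 lists, 9 had such a member on the higher side and 0 on the lower side, 18 had measured members of which none passed, and 4 (EGFR ligands and markers of fibroblasts, immune cells and endothelium) had no member at 20 CPM. Summed over their members, fibroblast markers were at 4.92 against 3.97 CPM in the HA control and 2.65 against 4.47 CPM in the VPR control, and PTPRC, the pan-leukocyte gene, had a level of 0.141 against 0 CPM in the HA control and 0 in the VPR control. Basal mammary markers were mixed: apart from KRT17, CAV1 (caveolin) had ratios of 0.46 and 0.29, whereas EGFR was at 1879 against 2084 CPM (-0.15) and at 1851 against 1926 CPM (-0.06), and ITGB1 had ratios of -0.33 and -0.14. TP63, the transcription factor of basal epithelia, was near 0, at 1.12 against 6.09 CPM and 3.03 against 2.33 CPM. Laminin-332 and hemidesmosome genes had medians of -0.16 and 0.06, and 0 of 5 measured members passed. The myoepithelial list had TAGLN alone at 20 CPM, at 45.1 against 34.1 CPM (0.39) and at 65.6 against 38.3 CPM (0.76), while ACTA2, MYH11 and CNN1 were at or under 0.777 CPM in every class.

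Luminal and secretory genes were not lower as a list. In the luminal and progenitor list the medians were 0.08 and 0.02, and 1 of 10 measured members (MUC1) passed. SLPI, a secreted protease inhibitor, was at 746 CPM in KRT14+ against 530 CPM in KRT14- cells of the HA control (0.49) and at 648 against 451 CPM in the VPR control (0.52), and GATA3, a luminal transcription factor, had ratios of 0.06 and -0.21. Among S100 genes, S100A8 and S100A9, the subunits of calprotectin, had ratios of -0.06 and -0.10 in the HA control and 0.31 and 0.20 in the VPR control, smaller than those of S100A7 in each. S100A2, a p63 target of basal cells, was at 369 against 249 CPM (0.57) and at 265 against 138 CPM (0.93). ID2, an inhibitor of differentiation factors, was low and at 26.7 against 10.1 CPM (1.33) and at 17.1 against 6.02 CPM (1.36). INHBA, the activin A subunit, was at 58.6 against 40.5 CPM (0.52) and at 52.0 against 26.4 CPM (0.95), opposite in sign to INHBB. None of 5 measured AP-1 subunit genes passed, although FOS had a ratio of 0.42 in both controls. Of these 5 genes, 4 were above 0 in the HA control (median 0.08) and 1 in the VPR control (median -0.03). VIM (vimentin) had 138 UMIs in KRT14+ against 65 in KRT14- cells and 102 against 29 UMIs, of which 42 of the 102 came from 1 cell.

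Mitotic genes were mostly a little lower in KRT14+ cells. The median log2 ratio of 16 G2/M genes was -0.15 in the HA control, where 3 were above 0, and -0.25 in the VPR control, where 0 were above 0, and none passed 1.5-fold. CCNB1, the mitotic cyclin, was at 159 CPM in KRT14+ against 206 CPM in KRT14- cells of the HA control (-0.38) and at 168 against 219 CPM in the VPR control (-0.39). Together these genes took 0.280% of UMIs in KRT14+ against 0.304% in KRT14- cells of the HA control and 0.284% against 0.341% in the VPR control, but 0.250% and 0.252% in all KRT14- cells before pairing. The direction therefore holds for cells paired on depth and turns when they are not. S phase genes had medians of 0.08 and 0.05.

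Across cells with 0, 1, 2, 3 to 4, 5 to 9 and 10 or more KRT14 UMIs, the levels of several of these genes followed the KRT14 count. These bins were not paired on depth. KRT16 was at 49.2, 68.9, 78.6, 118, 166 and 225 CPM in the HA control, and at 53.4, 77.4, 119, 138, 274 and 198 CPM in the VPR control. It was thus higher with each step of KRT14 in the HA control and up to 5 to 9 UMIs in the VPR control. Cells just outside the threshold (2 UMIs) lay between the KRT14- cells and those just inside (3 to 4 UMIs). However, 1 KRT14+ cell of the VPR control held 112 of the 965 KRT16 UMIs of its class. All cells there with 10 or more KRT14 UMIs held 109 KRT16 UMIs together, so that cell was not among them. Either the VPR control level at 3 to 4 or that at 5 to 9 UMIs therefore includes it, and neither was computed without it. FGFBP1 was at 111 CPM in cells with 0 UMIs and 294 CPM in cells with 10 or more in the HA control, and at 67.2 and 225 CPM in the VPR control. KRT17 was at 427 and 1216 CPM in these bins of the HA control and at 499 and 975 CPM in those of the VPR control. TCHH ran the other way, with 30.2 CPM at 0 UMIs and 8.90 CPM at 10 or more in the HA control, and 38.9 and 16.3 CPM in the VPR control. S100A7 had another shape: it was at 153 to 178 CPM between 2 and 9 KRT14 UMIs in the HA control, but at 51.9 CPM in the 31 cells with 10 or more, below the 99.9 CPM of cells with 0. In the VPR control it was at 406 to 430 CPM in these bins and at 179 CPM in the 22 cells with 10 or more. With the KRT14+ class set at 5 or more UMIs, the ratio of S100A7 was 0.26 in the HA control and 0.86 in the VPR control.

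**Figure D4:**
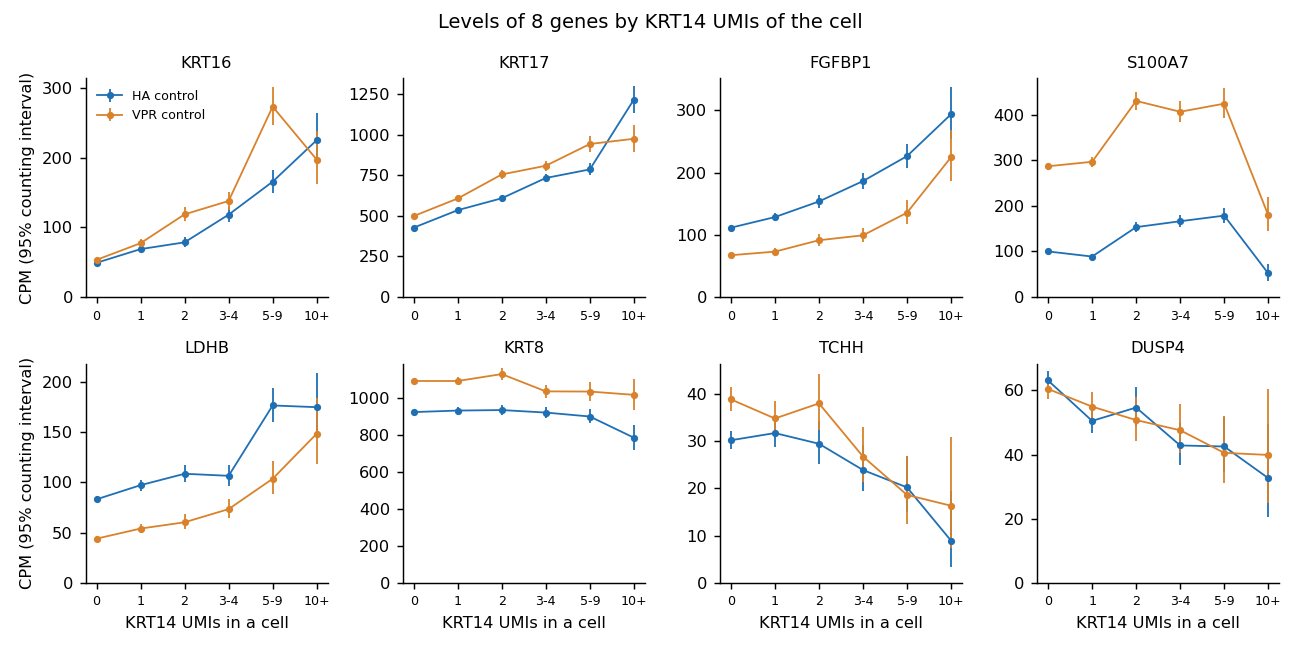
Levels (CPM, bars give the 95% counting interval) of 8 genes in cells of the HA control (blue) and the VPR control (orange) grouped by their number of KRT14 UMIs, from 0 to 10 or more. KRT16, KRT17, FGFBP1 and LDHB were higher and TCHH and DUSP4 lower where KRT14 was higher, KRT8 was at 925 CPM at 0 UMIs and 786 CPM at 10 or more in the HA control, and S100A7 was lowest in the cells with 10 or more in both controls.

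The same split was then tested in the 3 FOSL1 samples, which the choice of the 21 genes did not use, although they share the pooled library. edgeR's quasi-likelihood test with sample as covariate and Benjamini-Hochberg adjustment called 190 genes (1.44%) higher and 88 (0.665%) lower in KRT14+ cells of 13233 tested, at an adjusted p under 0.05. The 3 samples (HA FOSL1, gRNA2 and gRNA3) were made in different ways and are not replicates of 1 condition. The p-values therefore measure how far the change was shared across them. Of the 21 genes, 10 were called higher and 0 lower, and 13 were above 0 in all 3 samples; the 13233 genes include many at lower counts, so these shares are not of like genes. Pairing left the KRT14+ cells deeper here, at medians of 23624 against 21024 UMIs (HA FOSL1), 19757 against 17473 (gRNA2) and 20654 against 16393 (gRNA3). With pairs held within 5% of total UMIs, a choice made after seeing the data, edgeR called 97 genes higher and 30 lower. Without gRNA3 10 genes were called in all, and without HA FOSL1 1315.

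KRT16 rose in KRT14+ cells of the FOSL1 samples as well. It was at 376 CPM in KRT14+ against 134 CPM in KRT14- cells of HA FOSL1, at 280 against 115 CPM with gRNA2 and at 266 against 122 CPM with gRNA3. edgeR gave a log2 change of 1.29 (SE 0.07, adjusted p = 0.00051, higher in 3 of 3 samples), and without gRNA3 the adjusted p was 0.0059. All 6 measured basal and stress keratins of the list were called higher by edgeR, against 1.44% of all genes. KRT5 was at 0.42 (edgeR adjusted p = 0.0067), KRT15 at 0.72 (0.047), KRT17 at 0.41 (0.032), KRT6B at 1.13 and KRT6A at 3.85. In the controls KRT6A was near 0, with 6 UMIs in the 1974 KRT14- cells of the HA control and 3 in the 1530 of the VPR control. Its level in the FOSL1 samples and the number of cells behind its change are not given here. KRT17 was uneven, with log2 ratios of 0.14 in HA FOSL1, 0.61 with gRNA2 and 0.50 with gRNA3. Values without gRNA3 are not given for KRT5, KRT17, KRT6A and KRT6B. DESeq2 did not call KRT15 (adjusted p = 0.29). FGFBP1 had a log2 change of 0.72 (SE 0.09, edgeR adjusted p = 0.0095, higher in 3 of 3), KLK10 of 0.77 (0.0029), ALCAM of 0.72 (0.019) and MT1E of 0.49 (0.0018). Without gRNA3 the adjusted p of edgeR was 0.087 for FGFBP1, 0.057 for KLK10, 0.16 for ALCAM and 0.19 for KRT15. FOSL1 was at 93.5 against 41.9 CPM in HA FOSL1, 118 against 85.4 CPM with gRNA2 and 117 against 71.0 CPM with gRNA3, and edgeR called it higher (0.75, SE 0.11, adjusted p = 0.015; without gRNA3, 0.18). Its log2 ratios in the controls were 0.18 and 0.21, and edgeR's test of the difference between FOSL1 samples and controls gave 0.53 (SE 0.30, adjusted p = 0.53). In the FOSL1 samples the KRT14 classes thus differed in FOSL1 RNA as well, and KRT16 is on the list of genes raised with FOSL1 in these samples. The part of FOSL1 in the changes given here was not tested.

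Other genes that marked KRT14+ control cells were not called in the FOSL1 samples. S100A7 was at 30.2 CPM in KRT14+ against 87.8 CPM in KRT14- cells of HA FOSL1 (log2 ratio -1.51), but at 64.8 against 52.8 CPM with gRNA2 (0.29) and at 87.5 against 66.9 CPM with gRNA3 (0.38). Its log2 change was -0.21 (edgeR adjusted p = 0.79) and, without HA FOSL1, 0.34, from 4 libraries only. There 1 cell held 13.5% (gRNA2) and 14.1% (gRNA3) of the S100A7 UMIs of KRT14+ cells, and without it the ratios were 0.09 and 0.17. edgeR's test of its difference from the controls, -1.28 on the log2 scale, gave an adjusted p of 0.21. S100A8 and S100A9 were lower in KRT14+ cells of 3 of 3 FOSL1 samples, with ratios down to -2.13 (S100A8) and -1.51 (S100A9) in HA FOSL1, and log2 changes of -1.07 (edgeR adjusted p = 0.080) and -0.79 (0.067). SOSTDC1 had a log2 change of -0.02 (edgeR adjusted p = 0.97) at 4.15 to 15.5 CPM. GSTM3 was at 32.0 against 64.6 CPM in HA FOSL1, 38.1 against 43.6 CPM with gRNA2 and 43.0 against 45.4 CPM with gRNA3, with a log2 change of -0.41 (edgeR adjusted p = 0.21). In all, 7 of the 21 genes lay below 0 in HA FOSL1. Of the 12 lower named genes, IGFBP2 was called lower here too (-1.04, SE 0.17, edgeR adjusted p = 0.025, lower in 3 of 3; 0.18 without gRNA3 and 0.099 by DESeq2) and NT5E was called higher (0.21, SE 0.04, adjusted p = 0.041, higher in 3 of 3; 0.29 without gRNA3, 0.33 with pairs within 5% and 0.28 by DESeq2).

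Some other lists had members called in the FOSL1 samples. LAMB3, a laminin-332 chain, and ITGB4, an integrin of the hemidesmosome, had log2 changes of 0.96 and 0.46 (edgeR adjusted p = 0.010 and 0.013). Of the TGF-beta targets edgeR called 3 of 13 tested genes higher and of the G2/M genes 7 of 16, with 0 of either list lower, against 1.44% higher and 0.665% lower over all genes. Without gRNA3 edgeR called 10 genes in all, 0 of them lower. The KRT14+ cells were the deeper ones here, and the part of depth in these calls was not tested list by list. CAV1 was at 1865 against 1028 CPM in HA FOSL1, 1020 against 677 CPM with gRNA2 and 1128 against 700.2 CPM with gRNA3, a log2 change of 0.71, and S100A2 and INHBA had changes of 0.65 and 0.88 (edgeR adjusted p = 0.00065 and 0.0015). Of a list of genes that FOSL1 raised in these same samples, 11 of 15 tested were called higher in KRT14+ cells, and of those that FOSL1 lowered 7 of 13 were called lower and 0 higher; none of the lower calls held without gRNA3. Both lists were drawn from these libraries and are no independent evidence of a direction. In the controls, 2 of 6 measured genes of the raised list passed 1.5-fold in the HA control and 3 of 7 in the VPR control, KRT16 and ADAMTS1 in both, and 2 of 12 of the lowered list (S100A7 and CRYAB) were higher in both.

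A further fit of all 5 samples, chosen after seeing the data, tested whether the KRT14+ against KRT14- change differed between FOSL1 samples and controls. edgeR called 40 genes (0.307%) with a higher and 55 (0.422%) with a lower change in the FOSL1 samples of 13027 tested. Among the 21 genes it called 5, GSTM3, CYP1B1, MUC1, SLC6A14 and CRYAB, all lower in the FOSL1 samples. The log2 difference was -0.83 for CRYAB (SE 0.10, adjusted p = 0.0052; 0.0052 with pairs within 5%), -0.52 for MUC1 (SE 0.10, 0.036; 0.052) and -0.97 for SLC6A14 (SE 0.15, 0.021; 0.052). These genes were picked for ratios far from 0 in the controls, which enter the difference, so the adjusted p-values are too small for them. SLPI, a member of a list, had a difference of -0.83 (edgeR adjusted p = 0.0029). It was picked with earlier results of these data known, so this adjusted p is not free of selection either. SLPI was at 216 against 310 CPM in HA FOSL1, 268 against 295 CPM with gRNA2 and 263 against 319 CPM with gRNA3. It was thus lower in KRT14+ cells of 3 of 3 FOSL1 samples and higher in those of both controls.

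**Figure D5:**
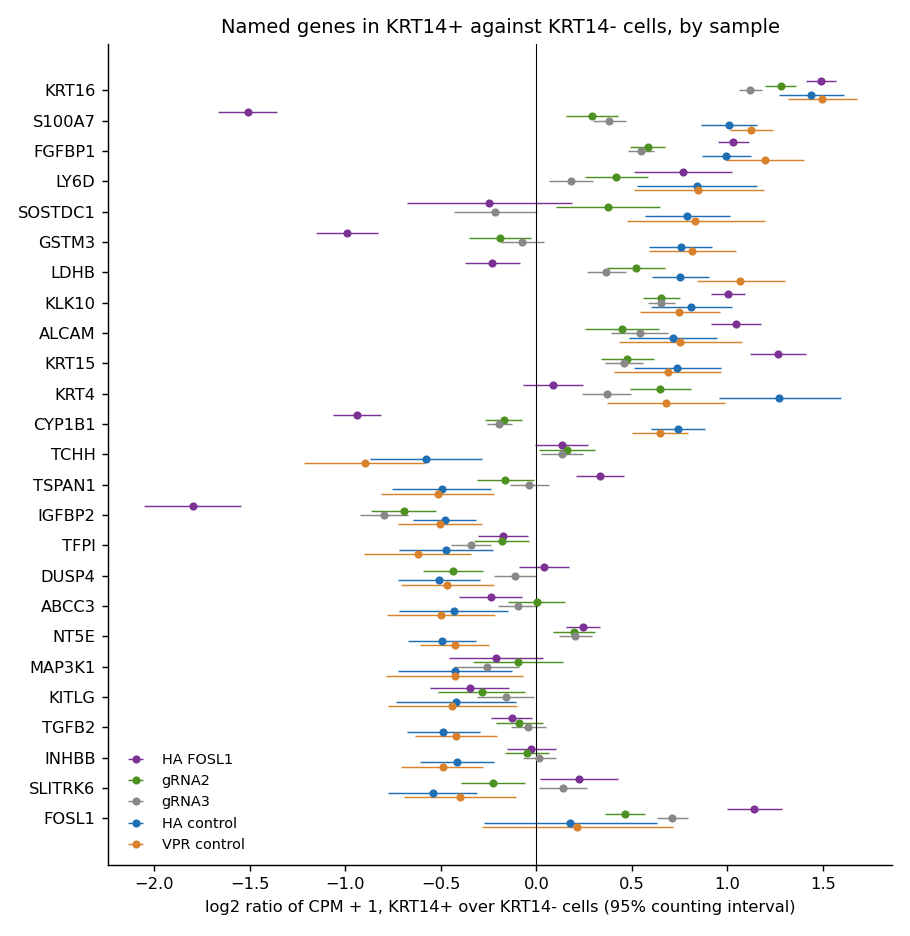
Log2 ratio of CPM + 1, KRT14+ over KRT14- cells, with 95% counting intervals, for the 12 highest and 12 lowest named genes and FOSL1 in HA FOSL1, gRNA2, gRNA3, the HA control and the VPR control. KRT16 lies between 1.12 and 1.49 in all 5 samples, whereas S100A7, GSTM3 and CYP1B1 lie left of 0 in HA FOSL1, where S100A7 reaches -1.51, and right of 0 in both controls.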

How the data were processed

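MDA-MB-468 cells of 5 hashed samples were sequenced as 1 pooled 10x library. The deposited matrix holds raw UMI counts for 33538 genes and 5 hashtags, made with Cell Ranger (version 4 per the file headers) on hg38 per the submitters' processing notes. The deposited assignment table gives each of 21228 called cells a sample and a probability, a fraction that the authors made with a tool not given in the sources used here. The hashtag GOF_controle was taken as the HA control by elimination. Multiplets (5181), unassigned cells (402) and blanks (274) were left out; doublets within a sample were not called. Cells with at least 1500 genes and at most 20% mitochondrial UMIs were kept, and 0 per-sample columns were unused.

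UMIs were summed per class, and KRT14 was left out of tables and totals. Intervals of log2 ratios of CPM + 1 are exact conditional binomial ones at 95% and cover counting error only. In the FOSL1 samples 1409 of 1427 KRT14+ cells with gRNA3 found a partner. The 6 summed libraries were fitted with edgeR 4.0.16 (TMM, filterByExpr; 2 residual degrees of freedom; 10 libraries and 3 for the difference), and the scripts were tested on simulated data. DESeq2 1.42.0, other class limits, filters, pairings and a removal of 5% free RNA were alternatives. Named genes are FOSL1, the 12 highest and 12 lowest by the smaller of the 2 control ratios among genes at 20 CPM with both intervals on 1 side of 0, and members of 31 lists. Members and lists were chosen with earlier results of these data known, and 2 lists were made from FOSL1 effects in these samples. Some genes among those counted are not reported here by name.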

Additional observations from a re-analysis of the deposited data

Results flagged for a closer look

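In edgeR's test of the difference between FOSL1 samples and controls, adjusted over all genes, 5 of the 12 highest and 12 lowest named genes passed 0.05. These were named for control ratios far from 0, which enter the difference. GSTM3 had a log2 difference of -1.20 (SE 0.22, adjusted p = 0.030), its ratios being -0.99, -0.19 and -0.08 in HA FOSL1, gRNA2 and gRNA3 against 0.75 and 0.81 in the HA and VPR controls. CYP1B1 differed by -1.12 (SE 0.18, 0.021), with -0.94, -0.17 and -0.19 in the FOSL1 samples against 0.74 and 0.65 in the controls. TCHH differed by 0.89 (SE 0.12, 0.010), with 0.13, 0.16 and 0.14 against -0.58 and -0.90. NT5E differed by 0.67 (SE 0.07, 0.0045), with 0.25, 0.20 and 0.20 against -0.49 and -0.43. INHBB differed by 0.43 (SE 0.08, 0.037), with -0.03, -0.05 and 0.01 against -0.42 and -0.49. With pairs held within 5% of total UMIs the adjusted p was 0.018 for CYP1B1, 0.028 for TCHH and 0.0073 for NT5E, but 0.086 for GSTM3 and 0.064 for INHBB. Other genes given above also passed. Of the 21 genes higher in both controls these were CRYAB (-0.83), MUC1 (-0.52) and SLC6A14 (-0.97), chosen by their control ratios as well. Among list members, which were picked with earlier results of these data known, they were SLPI (-0.83, adjusted p = 0.0029), FOS (-0.86, 0.021), ID2 (-1.24, 0.023), CCNB1 (0.37, 0.035), KRT18 (0.31, 0.011) and KRT34 (-3.17, 0.032), the last from a few cells. With pairs within 5% the adjusted p was 0.0027 for SLPI, 0.023 for FOS, 0.016 for KRT18 and 0.0052 for CRYAB, but 0.13 for CCNB1 and 0.052 for ID2, KRT34, MUC1 and SLC6A14.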

How the results depend on the processing

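All 21 genes higher in both controls stayed above 0 in both under each setting run, with a lowest log2 ratio of 0.05. They were picked for high ratios in these same cells, however, and the number of genes past 1.5-fold in both moved, as did its members. It was 12 at 50 CPM or more, 184 with no filter (141 higher, 43 lower), 45 (32 higher, 13 lower) for KRT14+ at 5 or more UMIs, 1 at 1 or more UMIs, 13 without the cells highest in G2/M genes, and 40 to 43 where only the other control is asked. With all KRT14- cells unpaired it was 13 higher, 10 of them among the 21. At 3000 genes and 10% mitochondrial UMIs it was 23 higher, 10 of them among the 21. At an own-hashtag share of 90% these counts were 15 and 11, and without the cells highest in G2/M genes 13 and 11. With pairs within 5% of total UMIs they were 23 and 21. In the HA control, where 40 genes passed, the count was 18 at 50 CPM, 960 with no filter, 152 at 5 or more UMIs (80 higher, 72 lower), 1 at 1 or more, 185 at 3000 genes and 10% mitochondrial UMIs (122 higher), 95 without the 10% of cells with the most UMIs (48 higher, 47 lower) and 93 at an own-hashtag share of 90% (62 higher). In the VPR control, where 43 passed, these were 20, 1279, 225 (116 higher), 1, 212 (123 higher) and 76 (38 higher, 38 lower), and 23 without pairing. In the FOSL1 samples, where edgeR called 278, DESeq2 called 155, no filter gave 950, unpaired cells 546, pairs within 5% 127, and leaving out a sample 10 to 1315. The samples' block is part of that fit: with no sample covariate (no replicate block) edgeR called 0, with 743 at an unadjusted p under 0.05. Signs turned for TSPAN1 (0.047) and NT5E (0.0012; -0.06 in the VPR control) in the HA control under the stricter filter, for S100A7 without HA FOSL1 (0.34; -0.59 to 0.34 over the left-out samples) and for NT5E over all 5 samples (-0.0047). The causes were not tested. With 1 library a group and most KRT14+ cells at 3 or 4 UMIs, depth limits how far cells near the threshold can be told apart.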
